A study of Mus musculus with 2 samples.

Results

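The 9 genes described here are the scavenger and mannose receptors *Cd36*, *Scarb1* and *Scarb2* (class B), *Msr1*, *Marco* and *Colec12* (class A), the stabilin *Stab1*, the haemoglobin receptor *Cd163* and the mannose receptor *Mrc1*. They were chosen by their gene symbols and were 9 of the 31053 genes counted. Of all genes, 15902 had at least 1 UMI (unique molecular identifier, which marks 1 counted RNA molecule) in the cells kept, and 9929 had at least 50, among them all 9 receptors. Adipose tissue macrophages (ATMs) were sorted as CD45+Lin-Ly6Clow/-F4/80+ cells from the epididymal fat of male C57/BL6 mice (substrain C57BL/6JOlaHsd in the methods) aged 8 to 12 weeks. The mice either stayed on control diet (CD) or received a high fat diet (HFD) overnight, and the labels name no genotype or other treatment. Cells of 3 mice per diet were pooled into 1 droplet single-cell RNA-seq library, so each diet had 1 library. Diet, the pool of mice, the sort and the library run therefore cannot be told apart, no p-value is given for any difference between diets, and all intervals are 95% intervals that cover counting error only.

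Scavenger receptors are cell surface proteins that bind modified lipoproteins, lipids, dying cells, microbial surfaces and other polyanionic ligands, and macrophages use them to clear such cargo by endocytosis. Class B receptors such as CD36 and SR-BI also move fatty acids and cholesterol across the membrane, class A receptors carry a collagen-like stalk, and the mannose receptor takes up glycoproteins with exposed mannose. In adipose tissue, CD36 is a main route for long-chain fatty acids, while CD163, MRC1 and STAB1 are widely used marks of resident, clearing macrophages.

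The labelled cell type was checked against macrophage markers first. *Lyz2* was detected in 99.7% of kept cells in CD and 99.6% in HFD, *C1qa* in 96.5% and 83.5%, and *Csf1r* in 91.2% and 72.6%. *C1qb* was found in 96.3% and 86.6%, and *C1qc* in 93.5% and 79.5%. The other macrophage markers listed were found in fewer cells. *Adgre1* was found in 65.4% and 48.4%, *Cd68* in 66.1% and 45.2%, and *Itgam* in 56.9% and 51.5%. *Mertk* was found in 17.2% and 11.7%, and *Fcgr1* in 16.0% and 9.85%. Kept cells, with 200 to 3500 genes and at most 10% mitochondrial UMIs, numbered 2364 of 4459 barcodes in CD and 2021 of 3163 in HFD. Their median depth was 4490.5 UMIs in CD and 2792 in HFD, and 14.4% against 40.8% of them had under 1000 genes. The libraries shared 14 barcode sequences, 7 of them kept in both. Cells with at least 2 markers of another type numbered 53 in CD and 37 in HFD for dendritic markers and 9 and 5 for endothelial markers. They numbered 10 and 2 for stromal and 3 and 0 for lymphoid markers. Cells with erythroid markers were not counted this way. The erythroid markers summed to 855 CPM in CD and 939 in HFD, and *Hbb-bs* was found in 16.1% and 4.40% of kept cells.

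The start regions of the 4 receptors whose levels the results turn on are shown so that the letters next to each gene's start can be read beside its level. In the mouse build GRCm38, *Cd36* lies on chr5:17781690-17888801 (minus strand), *Stab1* on chr14:31139013-31168641 (minus), *Cd163* on chr6:124304656-124330527 (plus) and *Mrc1* on chr2:14229392-14332057 (plus), by the GENCODE vM21 annotation. Each sequence holds the 250 bases before the start of transcription in the RefSeq annotation of GRCm38.p6, 5′ to 3′ on the gene's strand, at chr5:17835897-17836146, chr14:31168642-31168891, chr6:124304401-124304650 and chr2:14229164-14229413 in the order printed. Capitals mark matches on either strand to 3 short motifs, TGCTGA (which reads TCAGCA on the other strand, a core of sites for MAF, a macrophage transcription factor), GAGGAA (which reads TTCCTC on the other strand, a core of sites for PU.1, the factor that sets macrophage identity) and AGGTCA (which reads TGACCT on the other strand, a core of sites for lipid-sensing nuclear receptors). No match overlapped another.
Cd36: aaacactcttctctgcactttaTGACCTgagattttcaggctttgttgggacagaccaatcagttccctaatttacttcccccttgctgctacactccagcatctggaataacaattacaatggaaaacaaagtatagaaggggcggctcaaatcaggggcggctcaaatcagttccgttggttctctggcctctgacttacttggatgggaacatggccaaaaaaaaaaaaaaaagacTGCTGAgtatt
Stab1: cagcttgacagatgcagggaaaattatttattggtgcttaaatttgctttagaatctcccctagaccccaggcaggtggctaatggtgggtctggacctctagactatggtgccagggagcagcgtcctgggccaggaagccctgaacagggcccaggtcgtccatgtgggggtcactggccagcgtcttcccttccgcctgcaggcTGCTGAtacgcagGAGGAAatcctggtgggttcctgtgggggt
Cd163: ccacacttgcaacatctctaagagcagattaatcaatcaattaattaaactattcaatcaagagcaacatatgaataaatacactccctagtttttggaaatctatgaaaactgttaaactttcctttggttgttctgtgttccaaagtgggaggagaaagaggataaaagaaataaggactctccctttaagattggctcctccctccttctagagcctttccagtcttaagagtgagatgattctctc
Mrc1: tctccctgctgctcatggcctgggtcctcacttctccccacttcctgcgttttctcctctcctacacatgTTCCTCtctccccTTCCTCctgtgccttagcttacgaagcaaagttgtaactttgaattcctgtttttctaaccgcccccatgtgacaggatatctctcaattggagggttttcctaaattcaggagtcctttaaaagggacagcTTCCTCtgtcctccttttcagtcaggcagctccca
The *Cd36* window held TGCTGA 11 bases and TGACCT 228 bases before the start, and the *Stab1* window held TGCTGA 43 bases and GAGGAA 30 bases before it. In *Mrc1*, TTCCTC stood 180, 167 and 35 bases before the start, and the *Cd163* window held none of the 3 motifs. The motifs occur by these letters in 16.1% (TGCTGA), 23.3% (GAGGAA) and 14.0% (AGGTCA) of 32851 mouse windows of the same length, so a match is a description of the letters and not of a bound site. The *Cd36* window lies wholly inside an intron of the longer *Cd36* gene model and outside its exons, the last 22 bases of the *Mrc1* window lie in its first exon by GENCODE, and 28 bases of the *Cd163* window overlap the small RNA gene *Gm25311*. Windows of this kind were at hand for 6 of the 9 receptors.

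The first comparison asked how the receptors differed between CD and HFD when all kept cells of a library were summed. *Msr1* was higher in HFD, *Stab1*, *Mrc1* and *Colec12* were lower by more than 1.5-fold, and *Cd36* was higher by less than that. Levels are CPM, the UMIs of a gene for every 1000000 UMIs of the summed cells. Past the 1.5-fold limit were 1 receptor in the higher direction, against 4.7% of the 9929 genes with at least 50 UMIs, and 3 receptors in the lower direction, against 8.94% of those genes. The median log2 ratio of all these genes was -0.02. In such sums, fewer cells of a type and less RNA of a gene per cell cannot be told apart.

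Among the class B receptors, *Cd36*, which takes up long-chain fatty acids and oxidised lipoproteins, was at 811 CPM (795 to 827) in CD and 1020 CPM (998 to 1042) in HFD. Its log2 ratio of HFD over CD was 0.33 (0.29 to 0.37). *Scarb2*, which encodes the lysosomal membrane protein LIMP-2, was at 95.2 CPM (89.8 to 101) and 103 CPM (96.0 to 110), and the interval of its log2 ratio, -0.02 to 0.24, included 0. *Scarb1* encodes SR-BI, the receptor for high density lipoprotein. It had 169 UMIs in CD and 85 in HFD, or 13.8 and 10.5 CPM, with a log2 ratio of -0.39 (-0.78 to -0.00).

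Among the class A receptors, *Msr1*, the macrophage receptor for acetylated lipoprotein, was at 37.9 CPM (34.5 to 41.5) in CD and 57.9 CPM (52.7 to 63.4) in HFD, a log2 ratio of 0.61 (0.42 to 0.80). *Colec12*, a collectin with a class A stalk, had 323 UMIs in CD and 101 in HFD, or 26.3 and 12.5 CPM, a log2 ratio of -1.07 (-1.41 to -0.75). *Marco*, which binds bacteria and particles, had 59 and 31 UMIs, or 4.80 and 3.83 CPM, and its log2 ratio of -0.33 (-1.002 to 0.326) had an interval that included 0. The 2 well counted members of the class thus stood on opposite sides of the CD level.

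*Stab1*, which encodes a clearance receptor for modified lipoproteins and phosphatidylserine, was at 257 CPM (248 to 266) in CD and 166 CPM (157 to 175) in HFD. Its log2 ratio was -0.63 (-0.72 to -0.54). *Cd163*, which takes up haemoglobin bound to haptoglobin, was at 268 CPM (259 to 278) and 226 CPM (216 to 237), a log2 ratio of -0.25 (-0.33 to -0.16). *Mrc1*, which encodes the mannose receptor CD206, was at 838 CPM (822 to 855) in CD and 529 CPM (513 to 545) in HFD, a log2 ratio of -0.66 (-0.72 to -0.61).

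The lower levels depended on how cells were weighted, and the HFD library held more cells of low depth. When every cell counted equally (the mean of the CPM of each cell), the log2 ratio was -0.02 for *Stab1*, 0.28 for *Cd163*, -0.37 for *Mrc1* and -0.54 for *Colec12*, and none of the 9 receptors was lower by 1.5-fold. Over cells with at least 1000 genes it was -1.33 for *Stab1*, -0.79 for *Cd163*, -0.95 for *Mrc1* and -1.74 for *Colec12*. *Cd36* kept its direction, at 0.43 with equal weights and 0.19 with at least 1000 genes, as did *Msr1*, at 0.75 and 0.50.

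**Figure D1:**
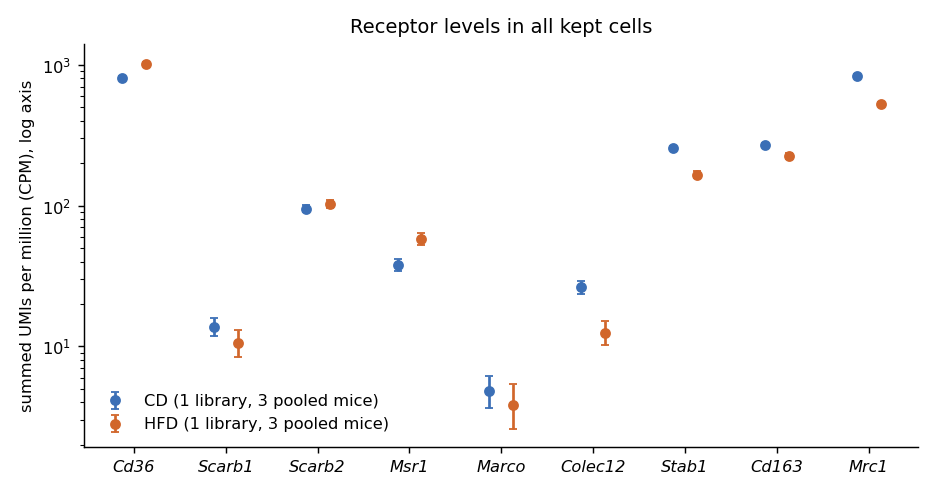
Level of each receptor in all kept cells, in CPM on a log axis, with 1 point per library (CD and HFD) and exact 95% Poisson intervals for counting error. *Cd36* stands at 811 CPM in CD and 1020 in HFD, *Mrc1* at 838 and 529, and *Marco* below 5 CPM in both.

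Because each library is its own scale, ratios of UMIs between receptors of the same cells were also compared. For each UMI of *Mrc1*, 0.967 UMIs of *Cd36* were counted in CD and 1.93 in HFD, a log2 change of 0.996 (0.929 to 1.062). The same change was between 0.86 in Lyve1+ cells and 1.71 in Trem2+ cells over the 6 marker classes described next. UMIs of *Msr1* for each UMI of *Mrc1* were 0.0452 in CD and 0.109 in HFD, a log2 change of 1.28 (1.08 to 1.47). *Stab1* stood at 0.306 and 0.314 UMIs for each of *Mrc1* in the summed cells (log2 change 0.04, -0.07 to 0.14), but this ratio changed by 0.35 (0.16 to 0.53) in Folr2+Lyve1-, by -0.35 (-0.52 to -0.18) in Ccr2+ and by -0.52 (-0.82 to -0.22) in Lyz1 high cells. The ratio of *Cd163* to *Stab1* in the summed cells went from 1.04 to 1.36 (0.38, 0.26 to 0.50).

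The second comparison asked where in the ATM compartment each receptor was high. Cells were put in 6 classes by the UMIs of a marker gene. Classes were Timd4+ and Lyve1+ (marks of resident macrophages), Folr2+Lyve1- (the folate receptor without *Lyve1*), Ccr2+ (the chemokine receptor of monocytes), cells with at least 10 UMIs of *Lyz1* (a lysozyme of recently recruited cells, called Lyz1 high here) and Trem2+ (the lipid receptor of lipid-associated macrophages), with at least 1 UMI for the other markers. In CD they held 368 (15.6%), 1172 (49.6%), 872 (36.9%), 1326 (56.1%), 555 (23.5%) and 638 (27.0%) cells in that order. In HFD they held 72 (3.56%), 415 (20.5%), 581 (28.7%), 1131 (56.0%), 672 (33.3%) and 168 (8.31%) cells. Classes overlapped, so that 386 of the 638 Trem2+ cells in CD and 32 of the 168 in HFD also had *Lyve1*. A call by 1 UMI also depends on the depth of a cell.

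In CD the receptors were graded from resident to recruited classes. *Cd36*, *Msr1*, *Stab1*, *Cd163*, *Mrc1* and *Colec12* all had the order Timd4+, Lyve1+, Trem2+, Folr2+Lyve1-, Ccr2+ and Lyz1 high, from highest to lowest. Against the other kept cells of the library, 7 of 9 receptors were at least 1.5-fold higher in Timd4+ cells (11.4% of the genes tested) and 0 lower (7.5%), and 7 were higher in Lyve1+ cells (14.7%) and 0 lower (7.43%). In Trem2+ cells 3 were higher (4.28%) and 0 lower (4.54%). In Folr2+Lyve1- cells 0 were higher (1.92%) and 5 lower (5.69%). In Ccr2+ cells 0 were higher (8.71%) and 7 lower (19.3%), and in Lyz1 high cells 1, *Marco*, was higher (7.94%) and 7 lower (23.9%). *Marco* was also among the higher receptors in Timd4+, Lyve1+ and Trem2+ cells. In each of these classes and in Lyz1 high cells, the same cell held 32 of its 59 UMIs in CD. Cells with at least 2 peritoneal macrophage markers held 72.9% of its CD UMIs.

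*Cd163* had the clearest grading in CD over these overlapping classes. It stood at 483 CPM (450 to 517) in Timd4+, 409 (392 to 427) in Lyve1+, 329 (310 to 348) in Trem2+, 203 (191 to 216) in Folr2+Lyve1-, 170 (162 to 179) in Ccr2+ and 62.4 (55.5 to 69.9) in Lyz1 high cells. No neighbours in this order had intervals that met, but the classes share cells, as 286 of the 368 Timd4+ cells also had *Lyve1*. In disjoint strata (each cell placed once, as set out below) the CD order of *Cd163* differed. Timd4+ was at 483 CPM, Lyve1+ at 374 (356 to 394) and Folr2+ at 343 (314 to 373). Below them, Trem2+ was at 195, Ccr2+ at 53.5 and Lyz1 high at 38.8 CPM. By the overlapping classes, *Stab1* ran from 421 CPM (391 to 453) in Timd4+ cells to 65.3 CPM (58.3 to 73.0) in Lyz1 high cells. Its intervals met between Timd4+ and Lyve1+ and between Folr2+Lyve1- and Ccr2+ cells. *Colec12* lay between 66.0 CPM (54.3 to 79.5) in Timd4+ and 4.41 CPM (2.73 to 6.74) in Lyz1 high cells. The shares of Lyz1 high cells with *Stab1*, *Cd163* and *Mrc1* in CD were no higher than in cells with dendritic markers, as given with the shares, and no factor over that class is given for these genes. *Msr1* stood at 63.6 CPM in Timd4+ cells, but at 44.9 CPM without the 6 of 368 cells that had at least 2 peritoneal macrophage markers, below its 51.4 CPM in Lyve1+ and 51.1 CPM in Trem2+ cells.

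*Cd36* and *Mrc1* had the highest CPM in the same classes. *Cd36* was at 1205 CPM (1153 to 1259) in Timd4+ cells, 1133 (1105 to 1162) in Lyve1+ cells and 405 (387 to 423) in Lyz1 high cells, a factor of 2.98 between the ends. *Mrc1* was at 1276 CPM (1223 to 1331) in Timd4+ cells, 1214 (1185 to 1244) in Lyve1+ cells and 407 (389 to 425) in Lyz1 high cells. The Timd4+ and Lyve1+ levels of both genes did not differ beyond their counting intervals.

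In HFD the order of the overlapping classes had a different middle for *Stab1*, *Cd163* and *Mrc1*. This order was Lyve1+, Timd4+, Folr2+Lyve1-, Trem2+, Ccr2+ and Lyz1 high, so Folr2+Lyve1- cells stood above Trem2+ cells. Intervals met between Lyve1+ and Timd4+ cells for *Stab1* and *Cd163*, and between Timd4+ and Folr2+Lyve1- cells for *Cd163* and *Mrc1*. Without the 7 HFD Timd4+ cells with at least 2 peritoneal markers, Timd4+ cells were at 390 CPM for *Stab1* and 514 for *Cd163*. Lyve1+ cells were at 365 and 488 CPM. For *Mrc1* the Timd4+ level stayed below, at 930 against 969 CPM. Against the other kept cells, Folr2+Lyve1- cells went from a log2 ratio of -0.95 to 0.55 for *Stab1*, from -0.62 to 0.81 for *Cd163* and from -0.54 to 0.43 for *Cd36*, CD first. In Trem2+ cells the same measure went from 0.49 to -0.26 for *Stab1* and from 0.44 to -0.33 for *Cd163*, while *Cd36* went from 0.39 to 0.72 and *Msr1* from 0.66 to 1.02. When the classes held only cells of exactly 1 class, CD Folr2+Lyve1- cells had log2 ratios of 1.01 for *Stab1*, 1.10 for *Cd163* and 0.69 for *Mrc1*. The other cells then also held Folr2+Lyve1- cells of a second class, as 568 of the 872 also had *Ccr2*. These ratios therefore have another comparison group than those above. In the disjoint strata set out below, Folr2+ cells stood above Trem2+ cells in both libraries. In CD the 2 strata were at 343 and 195 CPM for *Cd163*, 260 and 168 for *Stab1* and 917 and 584 for *Mrc1*. In HFD they were at 571 and 178 CPM, 384 and 125, and 965 and 404.

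Of the 8 receptors with at least 50 UMIs in HFD, all but *Marco*, 5 were 1.5-fold higher than in the other HFD cells in Timd4+ cells (16.7% of genes) and 0 lower (19%), and 6 were higher in Lyve1+ cells (12.6%) and 1 lower (6.54%). In Folr2+Lyve1- cells 2 were higher (5.35%) and 0 lower (3.71%), and in Trem2+ cells 2 were higher (8.29%) and 1 lower (14.2%). In Ccr2+ cells 1, *Scarb1*, was higher (8.17%) and 6 lower (22.1%), and in Lyz1 high cells 0 were higher (5.9%) and 7 lower (23.1%). The Lyz1 high cells remained the lowest class for *Stab1*, at 32.0 CPM (27.0 to 37.6), and for *Cd163*, at 45.3 CPM (39.3 to 51.9). At the limit of the Lyz1 high class, cells with 8 or 9 UMIs of *Lyz1* had *Cd36* at 522 CPM in CD and 548 in HFD, and cells with 10 or 11 UMIs had 606 and 1020 CPM.

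**Figure D2:**
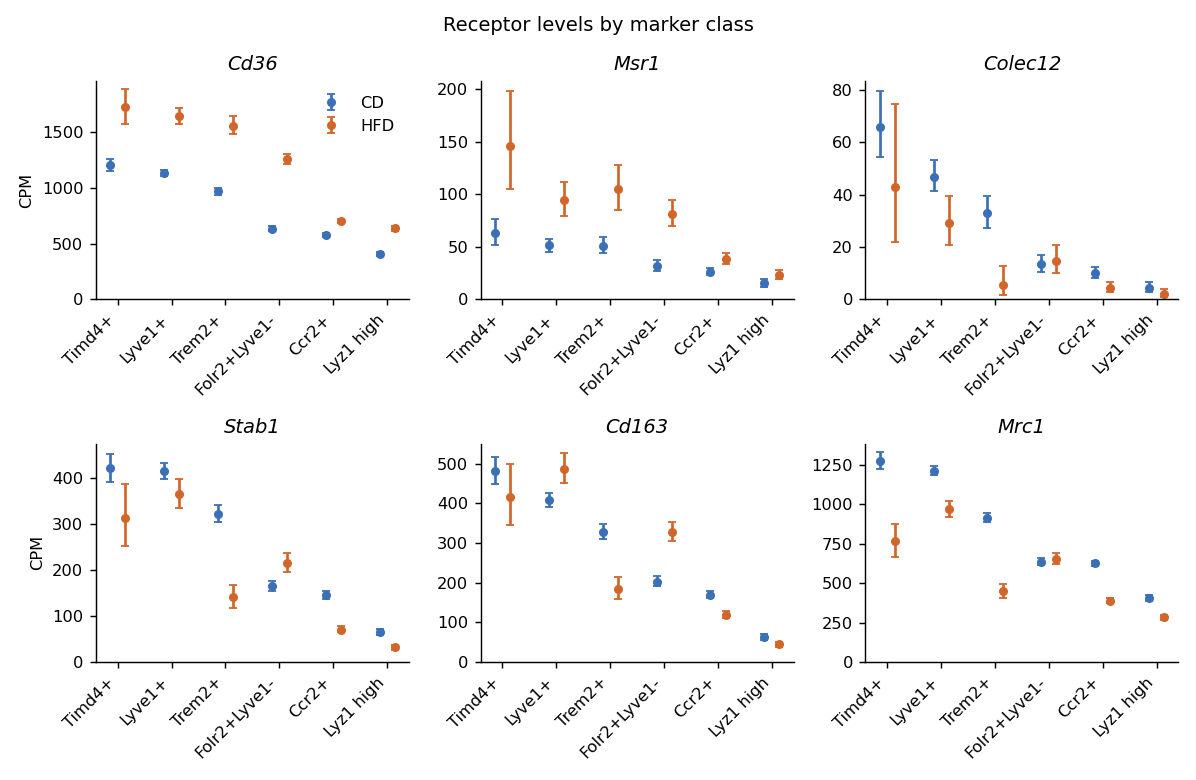
Level of 6 receptors in each marker class, in CPM, with CD and HFD side by side and exact 95% Poisson intervals. *Cd36* and *Msr1* are higher in HFD in all 6 classes, while *Mrc1* is lower in HFD in all classes but Folr2+Lyve1-.

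The third comparison set HFD against CD within each class. *Cd36* was higher in HFD in all 6 classes, with intervals that left out 0, although with at least 2 UMIs of *Timd4* required its log2 ratio in Timd4+ cells was -1.06. That value rests on few HFD cells, as the 72 HFD Timd4+ cells held 97 *Timd4* UMIs. The level of *Cd36* went from 1205 to 1726 CPM in Timd4+ cells (log2 ratio 0.52, 0.37 to 0.66), from 1133 to 1647 in Lyve1+ cells (0.54, 0.47 to 0.61) and from 637 to 1259 in Folr2+Lyve1- cells (0.98, 0.91 to 1.06). It went from 578 to 706 CPM in Ccr2+ cells (0.29, 0.23 to 0.35), from 405 to 640 in Lyz1 high cells (0.66, 0.58 to 0.74) and from 972 to 1562 in Trem2+ cells (0.68, 0.59 to 0.77). Each class ratio but that of Ccr2+ cells was larger than the 0.33 of all cells together.

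*Msr1* was likewise higher in HFD in all 6 classes. The log2 ratios were 1.20 (0.64 to 1.73) in Timd4+, 0.88 (0.57 to 1.18) in Lyve1+, 1.35 (1.03 to 1.67) in Folr2+Lyve1-, 0.55 (0.28 to 0.82) in Ccr2+, 0.62 (0.17 to 1.06) in Lyz1 high and 1.04 (0.67 to 1.40) in Trem2+ cells. In Lyz1 high cells the share with *Msr1* after thinning, 0.901% in CD, was no higher than the 3.77% of the 53 CD cells with dendritic markers. The level in Folr2+Lyve1- cells was 32.0 CPM in CD and 81.4 CPM in HFD, from 159 and 178 UMIs.

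*Mrc1* was lower in HFD in 5 of the 6 classes. It went from 1276 to 767 CPM in Timd4+ cells (-0.74, -0.94 to -0.53), from 1214 to 969 in Lyve1+ cells (-0.33, -0.41 to -0.24) and from 917 to 452 in Trem2+ cells (-1.02, -1.17 to -0.87). In Ccr2+ cells the log2 ratio was -0.69 (-0.76 to -0.62) and in Lyz1 high cells -0.51 (-0.61 to -0.41). Over cells in exactly 1 class the ratio of *Mrc1* changed sign, to 0.72 in Timd4+ and 0.15 (-0.12 to 0.42) in Ccr2+ cells. The value of 0.72 rests on few cells and has no interval here. Of the 368 CD Timd4+ cells, 286 also had *Lyve1* and 71 were Folr2+Lyve1-, and of the 72 in HFD 28 and 27. In Folr2+Lyve1- cells *Mrc1* was at 638 CPM in CD and 656 CPM in HFD, and the interval of the log2 ratio, -0.05 to 0.13, included 0.

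*Stab1* and *Cd163* were lower in some classes and higher in others. *Stab1* had log2 ratios of -0.42 (-0.76 to -0.10) in Timd4+ and -0.18 (-0.33 to -0.04) in Lyve1+ cells. Its level in Timd4+ cells was 421 CPM in CD and 314 in HFD, but 429 and 390 without cells that had at least 2 peritoneal markers. *Cd163* in Timd4+ cells was at 483 and 417 CPM, and at 490 and 514 without those cells. In other overlapping classes *Stab1* had larger differences. *Stab1* was lower by more than 1.5-fold in Ccr2+ (-1.04, -1.20 to -0.88) and Trem2+ cells (-1.19, -1.46 to -0.93). In Lyz1 high cells the value was -1.03 (-1.32 to -0.74), with a CD share of cells below that of cells with dendritic markers. In Folr2+Lyve1- cells it was 0.39 (0.22 to 0.55), but -0.22 over cells with at least 1000 genes. In Ccr2+ cells of exactly 1 class *Stab1* was on the other side of 0, at 1.06 (0.33 to 1.85), from 20 and 74 UMIs. *Cd163* went from 203 to 329 CPM in Folr2+Lyve1- cells (0.70, 0.56 to 0.84) and from 409 to 488 in Lyve1+ cells (0.25, 0.13 to 0.38). Over cells with at least 1000 genes these 2 ratios were 0.15 and -0.003. *Cd163* went from 329 to 185 CPM in Trem2+ cells (-0.83, -1.07 to -0.60) and from 170 to 120 in Ccr2+ cells (-0.51, -0.63 to -0.38). Over cells in exactly 1 class *Cd163* was at 1.61 in Ccr2+ cells, from 24 UMIs in CD and 130 in HFD, and at 0.58 in Lyz1 high cells. The Lyz1 high value rests on few CD cells, as 531 of the 555 also had *Ccr2*. The ratios in Trem2+ cells of exactly 1 class were 0.58 for *Stab1* and 0.25 for *Cd163*, on the other side of 0. Few CD cells lie behind them, as 386 of the 638 also had *Lyve1* and 218 were Folr2+Lyve1-.

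Other markers moved with these class ratios. The summed level of 8 resident markers in Trem2+ cells was 10408 CPM in CD and 3541 in HFD, that of 7 lipid-associated markers 1852 and 6009, and that of 4 erythroid markers 2181 and 17.3. In Folr2+Lyve1- cells the summed level of 6 stromal markers was 142 CPM in CD and 3.66 in HFD. In Timd4+ cells 6 peritoneal macrophage markers stood at 137 and 984 CPM and 8 dendritic markers at 239 and 702. Most of the dendritic difference came from *Ccl17*, at 19.6 and 474 CPM in Timd4+ cells, while *Cd209a* went from 199 to 175 CPM and *Flt3* had none in either library. Without the 6 CD and 7 HFD Timd4+ cells that had at least 2 peritoneal markers, *Cd36* was at 1235 and 2095 CPM and *Mrc1* at 1315 and 930 CPM there, while the part of the other markers was not tested.

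Counted over all pairs of receptor and class with at least 50 UMIs, 10 were higher and 13 lower by 1.5-fold in HFD. By class, higher and lower receptors were 2 and 2 of 8 in Timd4+ (8.08% and 17.1% of genes), 1 and 2 of 8 in Lyve1+ (7.27% and 8.58%) and 3 and 0 of 8 in Folr2+Lyve1- cells (7.1% and 5.95%). They were 0 and 3 of 8 in Ccr2+ (4.17% and 8.21%), 2 and 1 of 7 in Lyz1 high (4.81% and 6.05%) and 2 and 5 of 9 in Trem2+ cells (8.88% and 16.8%). The 2 higher receptors in Timd4+ cells were *Msr1* and *Marco*, the latter with nearly all of its UMIs there in cells with peritoneal markers. The lower receptor in Lyz1 high cells was *Stab1*, whose CD share there was below that of cells with dendritic markers. *Colec12* gave 4 of the 13 lower pairs, the lowest at 5 HFD UMIs in Trem2+ cells (33.1 and 5.40 CPM, log2 ratio -2.62, -4.27 to -1.35). *Scarb1* gave 2 of them, in Lyve1+ and Trem2+ cells, each with an interval that included 0. *Scarb2* gave none in either direction, with log2 ratios between -0.24 and 0.33.

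Since classes overlap and their shares differ between libraries, each cell was also put in 1 of 7 strata, by the first marker it had in the order *Timd4*, *Lyve1*, *Trem2*, *Lyz1* (at least 10 UMIs), *Folr2*, *Ccr2* and none. In every stratum *Cd36* was higher in HFD, with log2 ratios from 0.52 in Timd4+ to 1.004 in Trem2+ cells. *Msr1* lay between 0.69 in Lyz1 high and 1.49 in Folr2+ cells. *Cd163* was at 0.36 (0.22 to 0.50) in the Lyve1+ stratum, 0.74 (0.56 to 0.92) in Folr2+, 1.61 (0.98 to 2.30) in Ccr2+ and 1.54 (0.70 to 2.52) in cells with no marker. It was at -0.13 (-0.44 to 0.17) in the Trem2+ stratum. The Ccr2+ stratum holds the same cells as the Ccr2+ cells of exactly 1 class above, so its ratios are no second check. In CD its *Cd163* level rests on 24 UMIs in 16 of 89 cells. *Mrc1* was lower in the first 4 strata, from -0.74 in Timd4+ to -0.26 in Lyz1 high cells, and its intervals included 0 in Folr2+ (0.07), Ccr2+ (0.15) and unmarked cells (0.37). *Stab1* was at -0.42 in Timd4+, -0.17 in Lyve1+, -0.43 in Trem2+ and -0.61 in Lyz1 high cells. It was at 0.56 (0.35 to 0.77) in Folr2+, 1.06 (0.33 to 1.85) in Ccr2+ and 0.98 (0.28 to 1.77) in unmarked cells.

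With each HFD stratum weighted by its share of UMIs in CD, the log2 ratio of all cells moved upward for 8 of the receptors. It went from 0.33 to 0.70 for *Cd36*, from 0.61 to 1.11 for *Msr1*, from -0.63 to -0.12 for *Stab1* and from -0.66 to -0.31 for *Mrc1*. For *Cd163* it changed sign, from -0.25 to 0.28. For *Scarb1* it went from -0.39 to -0.49. At the CD mix of strata *Stab1* was thus closer to its CD level and *Cd163* above it, while *Mrc1* was still lower.

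**Figure D3:**
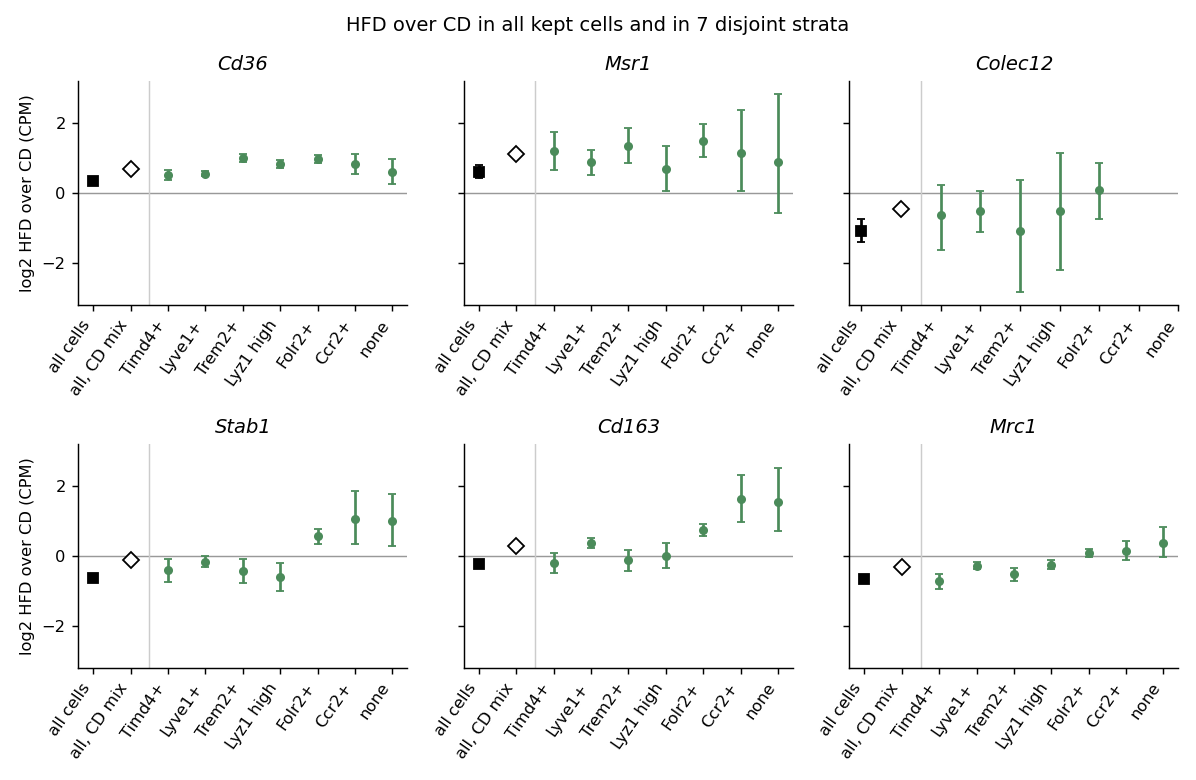
Log2 ratio of HFD over CD for *Cd36*, *Msr1*, *Colec12*, *Stab1*, *Cd163* and *Mrc1*, with a line at 0. Black squares are all kept cells, open diamonds all cells with the HFD strata weighted as in CD, and green points the 7 disjoint strata. *Colec12* has no point in the Ccr2+ and unmarked strata, where it had 0 UMIs in CD. *Cd36* is above 0 in every stratum, and *Cd163* stands at -0.25 in all cells and at 0.28 after weighting.

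Weighting by genes per cell moved the ratios the other way. Depth also differed between classes, so bins of genes per cell do not separate depth from class. Median depth was 8205 UMIs in CD and 6609 in HFD in Lyz1 high cells, against 4052.5 and 2299 in Lyve1+ cells. Kept cells were put in 5 bins of genes per cell, and levels of *Stab1*, *Cd163* and *Mrc1* were lower in the cells with the most genes in both libraries. *Mrc1* in CD was at 1667 CPM in cells with 500 to under 1000 genes and 515 in cells with 2000 to 3500 genes, and in HFD at 1305 and 292 CPM. In the same bins *Stab1* was at 557 and 121 CPM in CD and at 604 and 37.6 CPM in HFD. *Cd163* was at 545 and 129 CPM in CD and at 753 and 64.9 CPM in HFD. The ratio of HFD over CD was lower in cells with many genes. In cells with 1500 to under 2000 genes the log2 ratio was -1.70 for *Stab1*, -1.65 for *Cd163* and -1.27 for *Mrc1*. In cells with 2000 to 3500 genes it was -1.69, -0.99 and -0.82, and in cells with 500 to under 1000 genes 0.12, 0.47 and -0.35.

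*Cd36* had the same slope over genes per cell, from 1564 to 524 CPM in CD and from 1955 to 696 CPM in HFD. Its log2 ratio stayed between -0.09 and 0.41 over the 5 bins. Weighted to the CD mix of bins, the log2 ratio of all cells was 0.19 for *Cd36*, 0.51 for *Msr1*, -1.15 for *Stab1*, -0.67 for *Cd163*, -0.91 for *Mrc1* and -1.59 for *Colec12*. Weighting by strata and weighting by gene bins therefore moved *Stab1*, *Cd163* and *Mrc1* in opposite directions. The part of cell mix and of depth in the ratios was not tested.

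**Figure D4:**
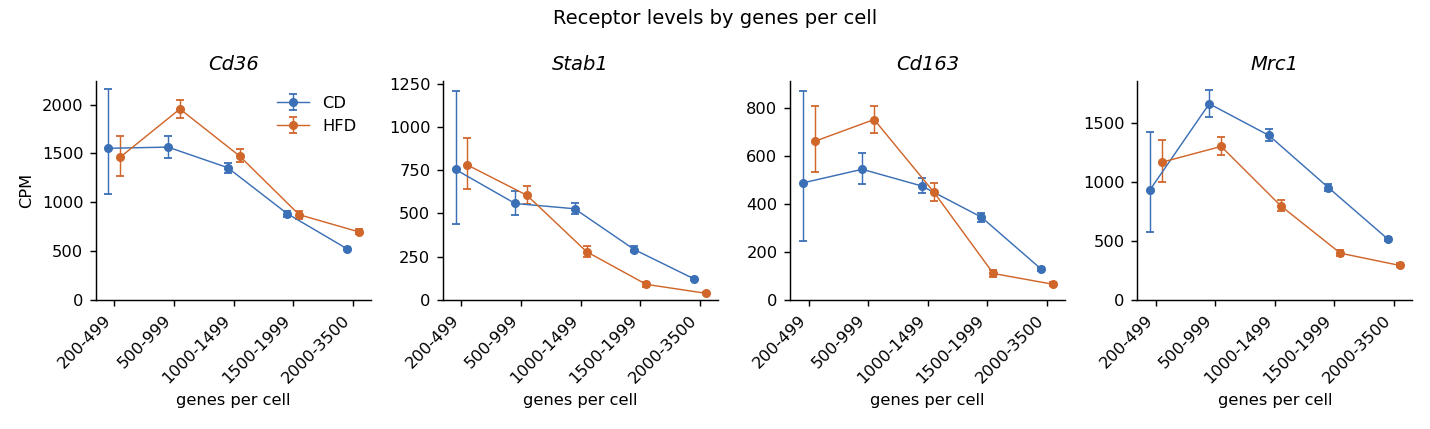
Level of *Cd36*, *Stab1*, *Cd163* and *Mrc1* in CPM over 5 bins of genes per cell, for CD and HFD, with exact 95% Poisson intervals. All 4 genes are lower in cells with 2000 to 3500 genes than in cells with 500 to under 1000 genes, with *Mrc1* in CD at 515 against 1667 CPM.

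To compare how many cells carried each receptor at equal depth, 1000 UMIs were drawn from every cell, and 52 CD and 267 HFD cells with fewer were set aside. A UMI of *Cd36* was found in 56.1% (54.0 to 58.1) of CD and 59.1% (56.7 to 61.4) of HFD cells, and in 89.2% and 87.4% of the same cells before thinning. *Mrc1* was found in 59.2% (57.1 to 61.2) and 45.7% (43.4 to 48.1), and *Stab1* in 25.7% (24.0 to 27.6) and 19.95% (18.11 to 21.90), with 91.9% and 79.2%, and 56.6% and 36.5%, before thinning. *Msr1* was found in 4.41% (3.61 to 5.33) and 6.96% (5.81 to 8.25), with 15.8% and 17.4% before thinning. These intervals did not meet for *Msr1* (higher in HFD) and for *Stab1* and *Mrc1* (lower). Shares over all genes were not compared in this way.

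Cells with at least 2 dendritic markers were set beside these shares, as the largest of the groups counted by dendritic, endothelial, stromal and lymphoid markers. They are no blank, since dendritic cells can express *Cd36* and *Mrc1*. The dendritic marker *Cd209a* was also found in 29.9% of all kept CD cells and stood at 199 CPM in CD Timd4+ cells. A share below that of cells with dendritic markers therefore does not show that a receptor is at background. Of 53 such cells in CD (median 7505 UMIs) and 37 in HFD (median 8369), against medians of 4605.5 and 3406.5 for all cells compared, 26.4% and 24.3% had *Cd36* after thinning, 39.6% and 21.6% had *Mrc1* and 20.8% and 10.8% had *Cd163*. *Stab1* was found in 15.1% in CD and in 0 of 37 cells in HFD, which allows a share of up to 8.11% by 3 counts, or 9.49% by the exact interval. In CD Lyz1 high cells *Stab1* (4.50%) and *Cd163* (6.31%) were below the shares in cells with dendritic markers. In HFD Lyz1 high cells *Cd163* (4.79%) was below that share too, and *Stab1* (3.74%) could not be set against 0 of 37 cells. *Mrc1* in CD Lyz1 high cells, at 35.5%, was no higher than the 39.6% of the 53 CD cells with dendritic markers. At 24.1% in HFD it was within the interval of the HFD cells with dendritic markers (9.83 to 38.2%).

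By class, the share of cells with *Cd36* after thinning was 48.2% (44.8 to 51.6) in CD and 65.9% (61.6 to 70.0) in HFD among Folr2+Lyve1- cells and 31.7% (27.9 to 35.8) and 41.8% (38.0 to 45.6) among Lyz1 high cells. Among Lyve1+ cells it was 67.8% (65.0 to 70.5) and 76.7% (72.1 to 80.9). *Mrc1* went from 71.5% (66.5 to 76.1) to 50% (37.6 to 62.4) among Timd4+ cells and from 61.8% (57.9 to 65.6) to 43.9% (36.2 to 51.9) among Trem2+ cells. Among Lyve1+ cells its shares of 70.8% and 67.5% did not differ beyond counting error.

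**Figure D5:**
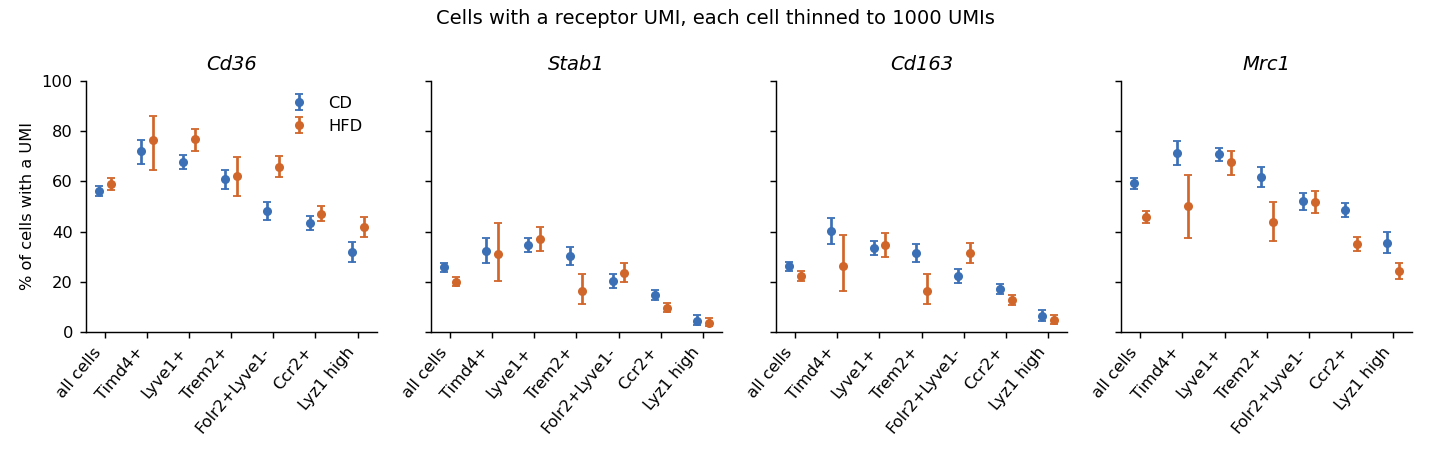
Percent of cells with at least 1 UMI of *Cd36*, *Stab1*, *Cd163* and *Mrc1* after each cell was thinned to 1000 UMIs, by marker class and library, with exact 95% binomial intervals. *Mrc1* is found in 59.2% of all CD cells and 45.7% of all HFD cells.

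In the thinned cells the other receptors were found more often where *Cd36* was also found. *Mrc1* was found in 67.8% of CD cells with *Cd36* and in 48.2% of those without, and in 54.4% and 33.2% in HFD. *Stab1* was found in 33.1% of CD cells with *Cd36* and 16.4% without, and in 27.4% and 9.19% in HFD. *Cd163* was found in 31.5% and 19.1% in CD and in 29.8% and 11.4% in HFD. Within Lyz1 high cells the gap for *Mrc1* was narrower, at 42.6% against 32.2% in CD and 26.2% against 22.6% in HFD.

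*Marco* rested on few cells. It was found in 17 CD and 11 HFD cells, and 1 CD cell held 32 of its 59 UMIs there. Cells with at least 2 peritoneal macrophage markers, 10 in CD and 15 in HFD, held 72.9% and 77.4% of its UMIs. Without them *Marco* was at 1.31 CPM in CD and 0.878 in HFD. The same cells held 7.53% and 7.91% of the *Msr1* UMIs, and *Msr1* kept a log2 ratio of 0.62 without them.

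Endothelial cells also express *Cd36* and *Scarb1*. The 9 CD and 5 HFD cells with at least 2 endothelial markers had *Cd36* at 2228 and 1922 CPM, but held 114 of 9959 and 28 of 8250 of its UMIs. They held 11 of 169 *Scarb1* UMIs in CD and 1 of 85 in HFD. With cells of other types removed, the log2 ratio was 0.34 for *Cd36* and -0.33 for *Scarb1*.

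Across the 7 strata of both libraries, 14 points that share their libraries and differ in depth, the patterns of the receptors were compared. On log2(CPM + 10), *Cd36* and *Msr1* had a Pearson correlation of 0.94. *Stab1* correlated with *Cd163* at 0.97 and with *Mrc1* at 0.96. *Cd36* also had 0.85 with *Cd163* and 0.83 with *Stab1*, and *Msr1* 0.85 with *Cd163*, so these genes did not form separate groups, while *Scarb1* had values from -0.11 to 0.14 with *Cd36*, *Msr1*, *Stab1*, *Cd163* and *Mrc1*. The genes most like *Cd36* among those with at least 500 UMIs were *Tcn2* (0.93), *Glul* (0.92) and *Abca1* (0.92), and those most like *Msr1* were *Thbd*, *Xdh* and *Rtn4* (each 0.92). For *Stab1* they were *Tcf4*, *Dab2* and *Man1a* (each 0.99), for *Cd163* *Ifi207* (0.99), *Ier3* and *Serinc3* (each 0.98), for *Mrc1* *Slc40a1* (0.99), *Igfbp4* and *Ap1b1* (each 0.98) and for *Scarb2* *Ppp1r12c* (0.94), *Stard5* (0.91) and *Abca9* (0.90). These are descriptions of 14 points and carry no test.

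Genes of the pathways around the receptors were counted in lists, each count to be read against the 4.7% of all genes tested that were higher and the 8.94% that were lower. Of 20 other scavenger receptors, 8 had at least 50 UMIs, and 1 was higher and 0 lower by 1.5-fold, with a median log2 ratio of -0.05. The higher gene was *Cd14*, the co-receptor for lipopolysaccharide, at 479 CPM in CD and 916 in HFD (log2 ratio 0.94). Of 18 genes of clathrin-mediated uptake, 0 were higher and 3 lower, with a median of -0.41. These were *Cltc*, the clathrin heavy chain (555 and 341 CPM, -0.70), and the adaptors *Ap2a2* (263 and 163 CPM, -0.69) and *Dab2* (611 and 407 CPM, -0.59).

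Of 17 fatty acid and lipid droplet genes, 2 were higher and 2 lower, with a median of 0.02. *Plin2*, which coats lipid droplets, was at 350 CPM in CD and 1031 in HFD, a log2 ratio of 1.56, and the fatty acid transporter *Slc27a1* was at 38.7 and 59.4 CPM (0.62). *Gpihbp1*, which anchors lipoprotein lipase, was at 9.12 and 4.82 CPM (-0.92), from 112 and 39 UMIs. By class its log2 ratio ranged from -2.91 in Trem2+ to 2.77 in Lyve1+ cells. The other lower gene, the triglyceride synthase *Dgat2*, had 53 UMIs in CD and 5 in HFD (-2.80, -4.48 to -1.49) and is named after its values were seen. Of 9 haem and iron genes, 0 were higher and 2 lower, with a median of -0.25. They were the biliverdin reductase *Blvrb* (342 and 194 CPM, -0.82) and the iron exporter *Slc40a1* (42.1 and 24.7 CPM, -0.77).

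Of the 15 regulators of these receptors with at least 50 UMIs, 2 were higher and 1 lower, with a median of 0.02. *Cebpb*, a factor of acute myeloid responses, was at 666 and 1434 CPM (1.11), and *Nr1h3*, which encodes the oxysterol receptor LXR alpha, at 4.07 and 7.42 CPM (0.87). *Maf*, whose motif letters are shown above, was at 415 and 237 CPM (-0.81). By class, *Maf* had a log2 ratio of 0.13 in Folr2+Lyve1- cells and between -0.92 and -0.31 in the others. Of 10 lysosomal genes 1 was higher and 0 lower, the protease *Ctsd*, at 622 and 1172 CPM (0.91), with a median of -0.11.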

How the data were processed

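Per the labels and methods, the authors made the matrices with Cell Ranger 3.0.2 on mm10, and deposited raw UMI counts per gene and barcode for 1 CD and 1 HFD library. Cells with 200 to 3500 genes and at most 10% mitochondrial UMIs were kept. The study had the same lower gene limit and mitochondrial limit, but took its upper gene limit from the spread of genes per cell and added a limit on UMIs per gene, which was not applied. The study also removed whole clusters, namely endothelial cells, peritoneal macrophages with *Gata6* and clusters whose median was under 1000 genes. No clusters were removed here, so such cells remain in the main values. Counts were summed per library and class and divided by the summed total (CPM). Levels had exact Poisson intervals, ratios exact conditional binomial intervals, shares exact Clopper-Pearson intervals, and pair ratios normal intervals on the log scale. With 1 library per diet no test was run, and a gene was counted at a 1.5-fold difference with at least 50 UMIs. Members and lists were chosen with earlier results of these data known. Named were all members, up to 4 genes per list past 1.5-fold with at least 100 UMIs, and the 3 genes most like each member with at least 500 UMIs. Scrublet in scanpy 1.11.5 called 0 CD and 1 HFD doublets, so doublets were kept, and an alternative removed the highest scores. Python 3.11.15, numpy 2.4.6, scipy 1.17.1, pandas 2.3.3 and matplotlib 3.10.9 were used. Ratios were checked on simulated data. Alternatives changed filters, scaling, weights and class rules, and those without cells bearing peritoneal, dendritic or stromal markers were added after seeing the data. Strand use in counting was not given in the sources used here, and *Stab1* overlaps *Nt5dc2*, with 289 UMIs, on the other strand.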

Additional observations from a re-analysis of the deposited data

Results flagged for a closer look

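*Cd163* had class ratios on opposite sides of 0. Its log2 ratio of HFD over CD was 0.70 (0.56 to 0.84) in Folr2+Lyve1- cells and -0.83 (-1.07 to -0.60) in Trem2+ cells, and the difference between the classes was not tested, since each diet had 1 library. Over cells with at least 1000 genes the values were 0.15 and -1.05. Over cells in exactly 1 class the values were 0.60 and 0.25, and in the disjoint Trem2+ stratum the value was -0.13 (-0.44 to 0.17). Few CD Trem2+ cells were in exactly 1 class.

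*Msr1* was also higher in HFD in barcodes that the main comparisons left out. An alternative with a mitochondrial limit of 20% took in part of them, and its log2 ratio of *Msr1* in all cells was 0.65. In the 2043 CD and 1120 HFD barcodes with over 10% mitochondrial UMIs and 200 to 3500 genes, with medians of 896 and 739 UMIs, *Msr1* was at 45.9 CPM in CD and 91.7 CPM in HFD, a log2 ratio of 0.999 (0.571 to 1.423) from 103 and 88 UMIs.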

How the results depend on the processing

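No paired analysis was possible because each diet had 1 library. Over 15 alternatives, 131 of 135 ratios of the 9 receptors in all cells kept their direction. *Cd163* ranged from -0.79 to 0.28 and *Stab1* from -1.33 to -0.02. The count of receptors higher in HFD, 1, became 2 with a mitochondrial limit of 5%, 3 with strata weighted as in CD, and 0 with at least 1000 genes, with gene bins weighted as in CD or with a 2-fold limit. Both larger counts include *Marco*, at 0.67 and 1.13, which rests on few cells. The count lower, 3, became 0 with equal weight per cell, after thinning to 1000 UMIs or with strata weighted as in CD, and 1 with a 2-fold limit. Of 771 class ratios 728 kept their direction. The 13 lower pairs of receptor and class became 7 with equal weight per cell, 5 after thinning, 8 with classes called after thinning and 0 over cells in exactly 1 class. Against the other cells of a library, 1347 of 1420 ratios kept their direction, the 18 higher CD pairs became 8 after thinning and the 15 lower HFD pairs became 8 over cells in exactly 1 class. Thinned shares gave 1 receptor higher and 2 lower in HFD, against 0 and 7 without thinning, 2 and 1 at 500 UMIs and 0 and 4 at 2000 UMIs. The same counts were not made over all genes, and median depth was 4490.5 UMIs in CD and 2792 in HFD. These counts are therefore no result about the receptors in particular. For the lists of other genes the 6 higher and 8 lower genes became 2 and 1 at 2-fold.

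Among HFD over CD ratios past 1.5-fold, those that changed sign in cells of exactly 1 class were 0.72 for *Mrc1* in Timd4+, 1.06 for *Stab1* and 0.15 for *Mrc1* in Ccr2+, and 0.58 for *Stab1* and 0.25 for *Cd163* in Trem2+ cells. Among smaller ratios, *Cd163* went to 1.61 in Ccr2+ and 0.58 in Lyz1 high cells in exactly 1 class, and *Cd36* in Timd4+ cells to -1.06 with 2 UMIs of *Timd4*. Few CD cells of the Timd4+, Trem2+ and Lyz1 high classes were in exactly 1 class, and few HFD cells had 2 UMIs of *Timd4*. After thinning *Colec12* reversed to 0.47 in Timd4+ and 0.15 in Lyve1+ cells. Against other cells, *Mrc1* in CD Timd4+ cells reversed to -0.54, *Msr1* and *Colec12* in HFD Trem2+ cells to -0.47 and 0.75, all in exactly 1 class, and *Scarb1* in CD Trem2+ cells to -0.18 after thinning. Cells that a stricter class rule leaves out are among the other cells in such ratios. With 2 UMIs of *Timd4*, HFD Timd4+ cells reversed to -0.82 for *Cd36*, -0.86 for *Stab1* and -1.11 for *Cd163*. In CD Folr2+Lyve1- cells the ratios reversed to 1.01 and 0.75 for *Stab1*, 1.10 and 0.75 for *Cd163*, 0.69 and 0.50 for *Mrc1* and 1.12 and 0.99 for *Colec12*, in exactly 1 class and with classes called after thinning. The cause was not tested. Counts of *Marco*, *Scarb1* and *Colec12* limit what their class ratios can show.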

Other observations

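The barcodes over the mitochondrial limit, with 200 to 3500 genes, held more *Stab1* per UMI than the summed kept cells of each library. *Stab1* was at 809 CPM (772 to 847) in CD and 775 CPM (720 to 833) in HFD there, with a log2 ratio of -0.06 (-0.19 to 0.06), against 257 and 166 CPM in kept cells. *Mrc1* was at 1403 and 1053 CPM (log2 ratio -0.41, -0.52 to -0.31) and *Cd163* at 421 and 618 CPM (0.55, 0.40 to 0.70). *Cd36* was at 1038 and 1132 CPM (0.13, 0.02 to 0.23), and *Colec12* at 35.2 and 17.7 CPM (-0.99, -1.84 to -0.22). The median depth of these barcodes was 896 UMIs in CD and 739 in HFD, against 4490.5 and 2792 in kept cells. Kept cells with 200 to under 500 genes had *Stab1* at 754 CPM (439 to 1207) in CD, from 17 UMIs. In HFD they had 780 CPM (642 to 938), from 112 UMIs. These levels did not differ from those of the barcodes over the limit beyond counting error. In kept cells with 500 to under 1000 genes *Stab1* was lower, at 557 and 604 CPM. The part of depth was not tested.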
